A study of Homo sapiens with 8 samples.

Results

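The genes described here make cholesterol, fatty acids and triglycerides, and they were taken by name from the deposited tables: 43 genes of 19158, all of which were found once and passed the filter on low values, 42 of them in both groups and ACSL5 through the treated libraries alone. They fall into 5 groups fixed by function. There were 18 enzymes of the sterol branch, 6 regulators, 10 genes of fatty acid synthesis, 4 long-chain acyl-CoA synthetases and 5 enzymes of triglyceride assembly. The RNA came from A549, a long-established human lung adenocarcinoma line of epithelial origin with the genotype label WT, grown in DMEM with glutamax and fetal bovine serum. In 4 wells the cells received dexamethasone, a synthetic glucocorticoid, at 1 µM for 48 h, and in 4 wells the treatment label was none. Each well gave 1 library, all 8 libraries carry the same batch label, and the replicates are numbered 1, 3, 4 and 5 in both groups. The wells share a cell line, so p-values measure the spread between these cultures only.

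Cells build sterols and fatty acids from cytosolic acetyl-CoA. The sterol branch runs through mevalonate and squalene to cholesterol, and the fatty acid branch runs through malonyl-CoA to palmitate, which is then elongated and desaturated. Both branches are known targets of the SREBP transcription factors, which SCAP escorts from the endoplasmic reticulum and INSIG proteins hold back when sterols are plentiful. Acyl-CoA synthetases activate free fatty acids, and the triglyceride enzymes add them to glycerol in steps that end with the DGAT enzymes. In lung epithelium these lipids feed membranes, lipid droplets and surfactant.

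Values were read as FPKM, fragment counts scaled by transcript length and library size. This unit was inferred from the values, since the labels call them counts. Levels, sums and ratios set beside each other between genes rest on that reading. The spacing of low values gave a depth of 24720000 to 29060000 fragments per library, or about 24.7 to 29.1 fragments per kilobase at 1 FPKM. This estimate is rough, because 44.1% to 47.9% of those low values came within 0.1 of a whole number of fragments. Of the epithelial keratins KRT8, KRT18 and KRT7 the lowest value in any library was 805 FPKM, but EPCAM, another epithelial marker, reached 0.765 FPKM at most. KRT19 was at 131 to 200.4 FPKM untreated and 44.0 to 64.2 FPKM treated, and CDH1 at 4.90 to 8.52 and 16.7 to 19.7 FPKM. Of 3 leukocyte genes PTPRC and CD3E were at 0 in all 8 libraries and CD68 was at 3.65 to 4.88 FPKM untreated and 1.81 to 2.24 FPKM treated. Of 2 adipocyte genes ADIPOQ was at 0 and PLIN1 reached 0.183 FPKM at most. Untreated replicate 5 stood apart from its group in many of the genes below, and dexamethasone replicate 5 did so less, so results that change without them are marked. In bulk RNA a lower level in every cell and fewer cells that express a gene cannot be told apart.

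After dexamethasone 9 of the 43 genes rose and 4 fell, by limma on log2(FPKM + 1) with a Benjamini-Hochberg adjusted p under 0.05 over all genes tested. All 4 acyl-CoA synthetases rose, both DGAT genes fell, and the sterol branch had 1 called gene of 18. The share called was 30.2% of these genes against 27.2% of all 12161 genes tested, so the 43 genes as a set were called about as often as any. By direction, 20.9% were called higher against a background of 11.9%, and 9.3% were called lower against 15.3%. Between the groups of libraries, 8 genes did not overlap on the higher side and 6 on the lower side. Both counts on the higher side include ACSL5, which passed the filter through the treated libraries alone, so its rise was favoured by selection. Of all tested genes 12.3% did not overlap on the higher side and 19.2% on the lower side, or 31.5% in either direction. Without both libraries numbered 5, 14 were called higher and 7 lower, where the background was 45%, with 21.9% higher and 23.2% lower.

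**Figure D1:**
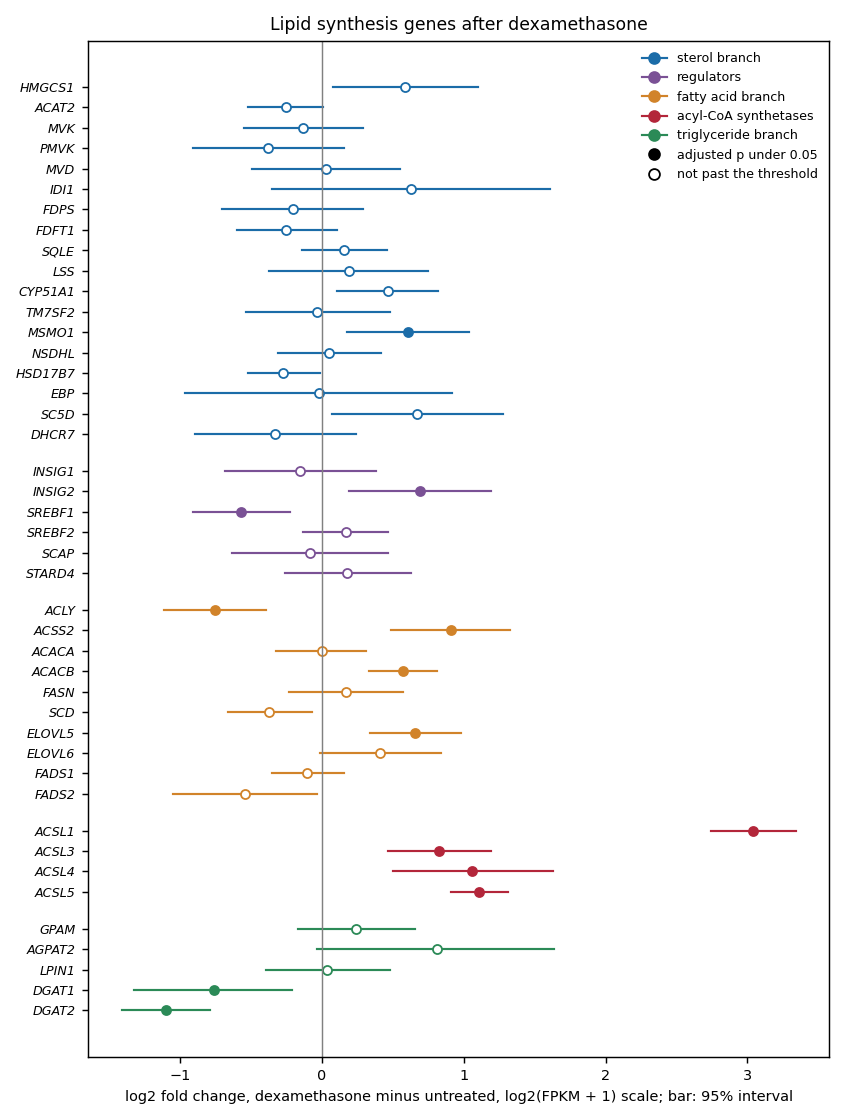
Log2 fold change of each of the 43 genes, dexamethasone minus untreated, on the log2(FPKM + 1) scale (x axis) with its 95% interval from limma (bars), 4 libraries against 4, in pathway order by colour. Filled points have an adjusted p under 0.05: the 4 acyl-CoA synthetases lie at 0.83 to 3.04, DGAT1 and DGAT2 at -0.76 and -1.10, and 17 of 18 sterol enzymes are open.

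Of the 18 sterol enzymes 1 was called, higher, and 17 were not, a share of 5.56% against 27.2% of all genes tested. That count depended on the fit. With the GC trend removed 5 were called, where 36.8% of all genes were. Without both libraries numbered 5 it was also 5, where 45% of all genes were called. With replicate number as a block 6 were called, and 8 with the GC trend removed as well, against 47.5% and 44% of all genes. In the fit reported the median log2 fold change of the sterol enzymes was 0.00, with 9 above and 9 below 0. The median over all genes tested was also 0.00. Their summed level was 719 ± 40.0 FPKM in untreated and 738 ± 73.5 FPKM in dexamethasone libraries (SD, n = 4 each). The 1 called gene was MSMO1 (ENSG00000052802, GRCh38 chromosome 4, 165327623 to 165343160), the methyl sterol oxidase that removes the C4 methyl groups of lanosterol's products. Throughout, values per library are given in the order of replicates 1, 3, 4 and 5. MSMO1 was at 37.2, 41.2, 42.0 and 19.2 FPKM in untreated libraries and at 55.0, 57.2, 61.1 and 38.8 FPKM after dexamethasone. Untreated replicate 5 was the lowest library, and dexamethasone replicate 5 lay below untreated replicates 3 and 4, so the groups overlapped. The log2 fold change was 0.61 (standard error 0.193; adjusted p = 0.0429 by limma). The call was lost without untreated replicate 1 (0.64, limma adjusted p = 0.0742) and without dexamethasone replicate 1, 3 or 4 (0.61, 0.58 and 0.55). Without scaling between libraries MSMO1 was also not called (0.63, limma adjusted p = 0.105).

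A run of other sterol enzymes had higher means without passing the threshold in the fit reported, though HMGCS1, CYP51A1, SC5D and IDI1 passed with replicate number as a block. HMGCS1, which commits acetyl-CoA units to the mevalonate route, was at 44.3, 45.3, 48.8 and 19.8 FPKM in untreated and at 62.3, 58.4, 73.5 and 41.4 FPKM in dexamethasone libraries. Its log2 fold change was 0.59 (limma adjusted p = 0.0833), and without both libraries numbered 5 it was 0.52 and passed (adjusted p = 0.00421). CYP51A1, the lanosterol demethylase, had a log2 fold change of 0.47 (limma adjusted p = 0.0535), and it passed without both libraries numbered 5 at 0.45 (adjusted p = 0.00373). SC5D, the desaturase late in the pathway, was at 4.06, 5.70, 5.53 and 1.73 FPKM untreated and at 8.66, 6.90, 9.19 and 4.15 FPKM treated. Both libraries numbered 5 were the lowest of their groups, the groups overlapped, and the log2 fold change of 0.67 (limma adjusted p = 0.0924) was the highest of the branch. It passed at 0.64 without both libraries numbered 5 (adjusted p = 0.00712). IDI1, the isopentenyl diphosphate isomerase, was lowest by far in untreated replicate 5, with 14.9, 18.3, 20.2 and 2.99 FPKM untreated against 21.7, 19.1, 25.4 and 11.5 FPKM treated (log2 fold change 0.63, limma adjusted p = 0.31). Without untreated replicate 5 it was 0.15, and without both libraries numbered 5 it was 0.34 (limma adjusted p = 0.637 and 0.066). With the GC trend removed HMGCS1, CYP51A1 and SC5D were at smaller values of 0.32, 0.26 and 0.34, which passed (limma adjusted p = 0.0367, 0.0402 and 0.038). HMGCS1, CYP51A1, SC5D, IDI1 and MSMO1 all have GC contents of 36.9% to 41.1%, the low end of the branch.

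The remaining sterol enzymes sat near or under 0. PMVK, the phosphomevalonate kinase, had the lowest log2 fold change of the branch at -0.38, with 31.3, 33.5, 33.0 and 47.3 FPKM untreated and 22.0, 27.9, 26.9 and 35.8 FPKM treated (limma adjusted p = 0.268). It passed at -0.30 without both libraries numbered 5 (adjusted p = 0.0468), but was -0.13 with the GC trend removed (adjusted p = 0.449). Groups did not overlap for ACAT2, the acetoacetyl-CoA thiolase, at 22.6 to 27.0 against 19.1 to 22.4 FPKM, yet it was not called (log2 fold change -0.25, limma adjusted p = 0.144). HSD17B7, a sterol ketoreductase, likewise did not overlap, at 13.7 to 16.6 against 10.9 to 13.1 FPKM (-0.27, limma adjusted p = 0.116). Log2 fold changes of the 5 genes MVK, MVD, TM7SF2, NSDHL and EBP lay between -0.13 and 0.05, and each changed sign in at least 1 other setting. FDPS, FDFT1 and DHCR7, for farnesyl diphosphate, squalene and the last reduction to cholesterol, were at -0.20, -0.25 and -0.33, and SQLE and LSS, which make and close squalene epoxide, at 0.16 and 0.19. None of these 10 was called in the fit reported, with limma adjusted p from 0.272 to 0.974. With the replicate block and the GC trend removed, MVD and LSS passed (limma adjusted p = 0.0278 and 0.0372). ACAT2 passed in that fit too (-0.42, adjusted p = 0.0254), and so did HSD17B7. The 95% intervals of the 10 are wide: that of SQLE, the narrowest, ran from -0.14 to 0.46, and that of EBP, the widest, from -0.96 to 0.92. HSD17B7 and FDPS have near-identical pseudogene copies and how reads common to such copies were assigned is not given, so both values are uncertain. The same holds for TM7SF2, which overlaps VPS51 on the same strand, and for CYP51A1 and EBP, which overlap unnamed protein-coding annotations on theirs. On the opposite strand ACAT2 overlaps SOD2 and TCP1, and MVK overlaps MMAB.

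**Figure D2:**
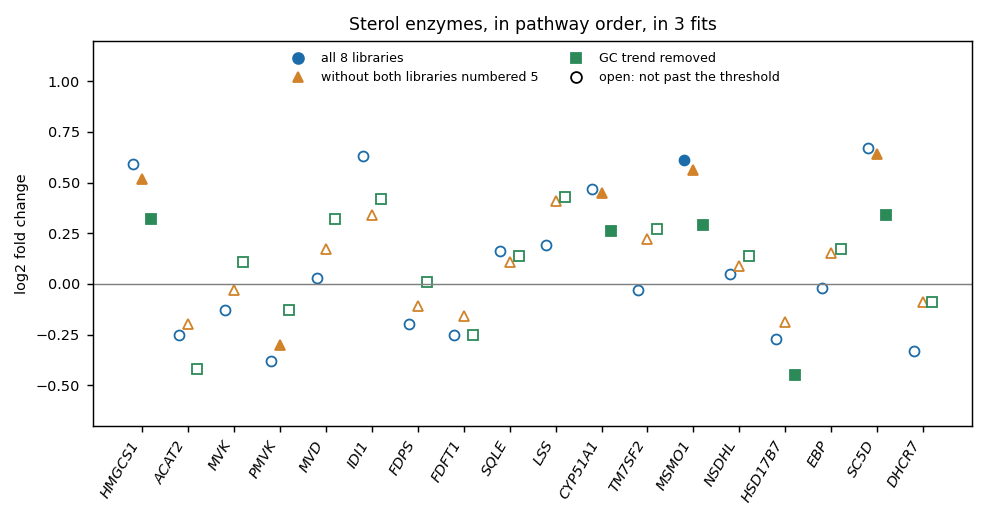
Log2 fold change (y axis) of the 18 sterol enzymes in pathway order for all 8 libraries, without both libraries numbered 5, and with each library's trend on gene GC content removed. Filled symbols passed an adjusted p of 0.05: only MSMO1 is filled in all 3, and its value goes from 0.61 to 0.29 with the GC trend removed.

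The GC content of a gene moved with these values, beyond the sterol branch too. In untreated replicate 5 the log2 deviation of the 43 genes from the mean of the other 3 untreated libraries ran from -1.95 to 1.53, and its Spearman correlation with GC content was 0.89 across the genes, which share the library. For dexamethasone replicate 5 it was 0.80. Log2 fold changes of the 43 genes had a correlation of -0.49 with GC content, and of all tested genes -0.44. With each library's GC trend removed, 20 genes were called, 14 higher and 6 lower, against a background of 18.3% higher and 18.4% lower. In that fit 12 of the 13 called genes kept their call and direction, INSIG2 being the exception. Those gained were HMGCS1, CYP51A1, HSD17B7, SC5D, SREBF2, FASN, SCD and AGPAT2. Why untreated replicate 5 deviates along GC content was not tested.

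**Figure D3:**
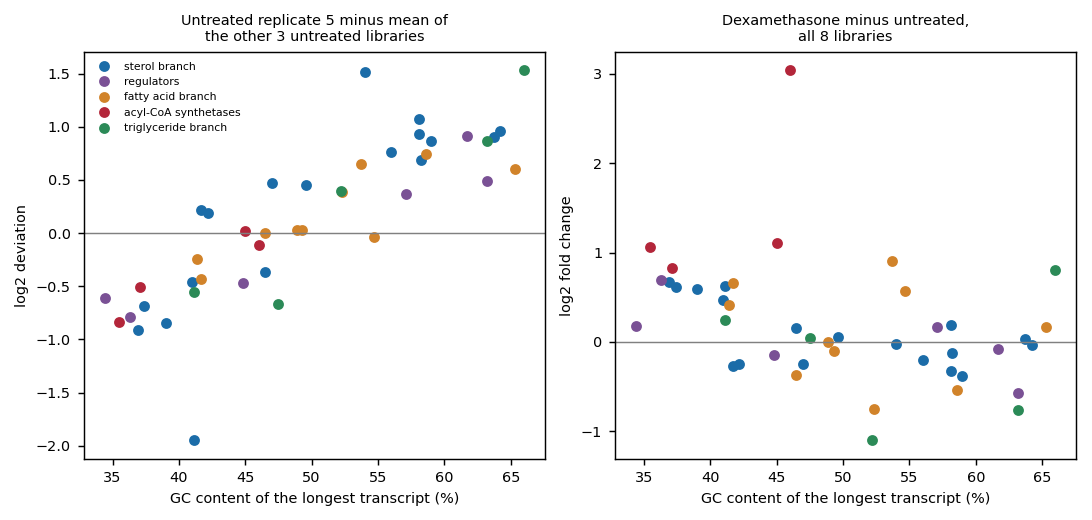
GC content of the longest transcript in percent (x axis) of the 43 genes against the log2 deviation of untreated replicate 5 from the other 3 untreated libraries (left) and against the log2 fold change of dexamethasone minus untreated (right). Points are genes, coloured by branch: deviations climb from as low as -1.95 to 1.53 with GC content, and ACSL1 at 3.04 stands above the other fold changes.

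Among the regulators, the gene for SREBP-1 fell and that for INSIG2 rose, while the other 4 were not called, or 33.3% called against 27.2% of all genes tested. SREBF1 (ENSG00000072310, chromosome 17, 17810399 to 17837002) encodes SREBP-1, which mainly serves fatty acid genes. It was at 63.3, 66.0, 56.5 and 68.8 FPKM in untreated and at 40.4, 44.8, 43.6 and 44.0 FPKM in dexamethasone libraries. The groups did not overlap, and the means were 63.6 ± 5.24 and 43.2 ± 1.93 FPKM (SD, n = 4 each), which put the log2 fold change at -0.57 (standard error 0.153; adjusted p = 0.022 by limma). The call was lost without untreated replicate 1 (-0.59, limma adjusted p = 0.0507) and without dexamethasone replicate 1, 3 or 4 (-0.51, -0.57 and -0.56). With the GC trend removed SREBF1 stayed called at a smaller -0.28 (limma adjusted p = 0.0256). SREBF1 overlaps RAI1 on the opposite strand, and whether strand was used in counting is not stated.

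SREBF2, for SREBP-2, which mainly serves sterol genes, held 37.6, 37.4, 37.4 and 38.1 FPKM untreated and 39.5, 45.7, 42.5 and 45.0 FPKM treated. All treated libraries lay above all untreated ones, but the log2 fold change of 0.17 was not called (limma adjusted p = 0.374), and with the GC trend removed it was 0.40 and passed (adjusted p = 0.0018). In untreated cells SREBF1 was above SREBF2 in every library, and after dexamethasone both had a mean of 43.2 FPKM. The log2 ratio SREBF1/SREBF2, taken on FPKM + 1 within each library, was 0.74 ± 0.112 in untreated and 0.00 ± 0.0362 in treated libraries (SD, n = 4 each). The difference of -0.74 had an exact permutation p = 0.0286, two-sided, the smallest that 4 against 4 can give, and 0.0571 after adjustment over 6 pairs.

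INSIG2 (ENSG00000125629, chromosome 2, 118088452 to 118110997), an endoplasmic reticulum anchor of SCAP, was at 3.82, 3.76, 3.73 and 1.37 FPKM untreated and at 5.03, 6.73, 7.01 and 3.80 FPKM treated. The groups touched, because dexamethasone replicate 5 lay below untreated replicate 1. The log2 fold change was 0.69 (standard error 0.222; adjusted p = 0.045 by limma). The call did not hold with the GC trend removed (0.35, limma adjusted p = 0.0725), with a pseudocount of 0.1 (0.86, adjusted p = 0.0528), with no filter or no scaling, or without any 1 of untreated replicates 1, 3 and 4 and dexamethasone replicates 1, 3 and 4. Its paralog INSIG1, itself a sterol-responsive SREBP target, ran from 17.2 to 37.0 FPKM untreated and from 17.1 to 34.5 FPKM treated, a log2 fold change of -0.15 (limma adjusted p = 0.654). The log2 ratio INSIG1/INSIG2 lay below the untreated range in each treated library, with means of 2.78 ± 0.224 and 1.95 ± 0.254 (SD, n = 4 each, exact permutation p = 0.0286, adjusted p = 0.0571). SCAP and STARD4, the latter a cytosolic sterol carrier, were at -0.08 and 0.18 (limma adjusted p = 0.825 and 0.513).

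Promoter sequence was set beside these results because sterol genes are known to share binding sites for the CCAAT-binding factor NF-Y next to those of SREBP. Of the 43 genes, 37 had promoters in the RefSeq table (GRCh38.p14, 250 bases before to 50 after each start, any listed start). The letters CCAAT, searched on both strands, were found for 13 of 15 sterol genes (86.7%), 7 of 9 fatty acid genes, 3 of 6 regulators, 2 of 4 acyl-CoA synthetases and 1 of 3 triglyceride genes. Of the 9615 tested genes with a promoter 43.3% held them, as did 34.6% of all 35116 promoters. The sterol regulatory letters TCACNCCAC were found for SREBF2 and ACSL1, 2 of the 37 genes (5.41%), and for none of the sterol branch. They were found for 1.39% of the tested genes with a promoter and in 1.13% of all promoters. The palindrome ACANNNTGT, the core spacing of glucocorticoid receptor sites, was found for CYP51A1, MSMO1, DHCR7 and FADS2, 4 of the 37 genes (10.8%). It was found for 4.06% of the tested genes with a promoter and in 5.37% of all promoters. CCAAT was found for 6 of the 9 genes called higher (66.7%) and for 1 of the 2 called lower that had a promoter. Of all 37 genes 26 held it (70.3%), so the genes called higher did not hold it more often than the set. Shown are the 250 bases before the start for the called sterol gene MSMO1, for NSDHL, an uncalled sterol gene at 0.05, for the called ELOVL5, for SREBF2, and for ACSL4, a called gene with no CCAAT. Capitals mark CCAAT or its reverse complement, the letters TCACCCCAC in SREBF2 and an E-box (CACGTG) in ELOVL5.
MSMO1, chr4:165327419-165327668, plus strand: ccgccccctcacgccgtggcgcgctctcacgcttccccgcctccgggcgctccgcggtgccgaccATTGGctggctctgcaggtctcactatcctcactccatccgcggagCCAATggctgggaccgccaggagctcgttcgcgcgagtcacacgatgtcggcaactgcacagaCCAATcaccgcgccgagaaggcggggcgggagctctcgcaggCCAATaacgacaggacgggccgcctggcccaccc
NSDHL, chrX:152830813-152831062, plus strand: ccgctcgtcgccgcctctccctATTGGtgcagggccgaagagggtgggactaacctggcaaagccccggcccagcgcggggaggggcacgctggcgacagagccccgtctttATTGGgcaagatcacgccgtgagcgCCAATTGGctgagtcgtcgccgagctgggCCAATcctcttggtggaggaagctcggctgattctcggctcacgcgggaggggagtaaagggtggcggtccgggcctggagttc
ELOVL5, chr6:53348951-53349200, minus strand: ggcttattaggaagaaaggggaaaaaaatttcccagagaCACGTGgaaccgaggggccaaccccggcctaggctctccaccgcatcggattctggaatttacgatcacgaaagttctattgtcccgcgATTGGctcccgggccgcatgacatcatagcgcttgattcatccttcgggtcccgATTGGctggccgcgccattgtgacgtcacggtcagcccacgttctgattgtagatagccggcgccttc
SREBF2, chr22:41832855-41833104, plus strand: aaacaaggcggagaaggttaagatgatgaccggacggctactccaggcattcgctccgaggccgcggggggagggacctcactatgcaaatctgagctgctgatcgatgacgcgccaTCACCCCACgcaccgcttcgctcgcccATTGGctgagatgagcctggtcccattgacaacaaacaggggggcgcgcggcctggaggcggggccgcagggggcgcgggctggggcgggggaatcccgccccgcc
ACSL4, chrX:109733258-109733507, minus strand: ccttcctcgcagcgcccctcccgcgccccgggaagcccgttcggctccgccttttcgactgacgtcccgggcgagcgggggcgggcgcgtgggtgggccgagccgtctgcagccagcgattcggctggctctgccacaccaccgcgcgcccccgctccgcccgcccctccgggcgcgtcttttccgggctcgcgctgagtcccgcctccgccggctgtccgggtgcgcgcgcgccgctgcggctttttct
MSMO1 has 4 CCAAT boxes and NSDHL has 5, a pair of which overlap, so the called and the uncalled sterol gene are alike in this feature. A match is a run of letters and no measure of binding.

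In fatty acid synthesis RNA levels changed for the enzymes that supply acetyl-CoA, in opposite directions, and for single later steps, while the synthase itself was not called. The supply of acetyl-CoA itself was not measured. Of 10 genes 3 rose and 1 fell, or 40.0% called against 27.2% of all genes tested, and the median log2 fold change was 0.08. ACLY (ENSG00000131473, chromosome 17, 41866908 to 41930542), ATP citrate lyase, cleaves citrate to cytosolic acetyl-CoA and had the highest untreated mean of the 43 genes. It was at 327, 341, 337 and 344 FPKM untreated and at 177, 202, 210 and 225 FPKM treated. The groups were far apart, with a log2 fold change of -0.75 (standard error 0.16; adjusted p = 0.00701 by limma). ACSS2 (ENSG00000131069, chromosome 20, 34872146 to 34927962) makes the same product from acetate. It was at 13.0, 10.8, 12.3 and 15.3 FPKM untreated and at 22.6, 24.9, 24.9 and 29.2 FPKM treated, with no overlap and a log2 fold change of 0.91 (standard error 0.188; adjusted p = 0.00612 by limma). The FPKM ratio of ACLY to ACSS2, chosen after the values were seen, was 26.6 ± 3.81 in untreated and 8.03 ± 0.307 in treated libraries (SD, n = 4 each). ACLY thus remained the more abundant in every library. ACSS2 overlaps GGT7 on the opposite strand.

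Of the acetyl-CoA carboxylases, which make malonyl-CoA, ACACB rose and ACACA was not called. ACACB (ENSG00000076555, chromosome 12, 109116595 to 109268226), the form at mitochondria whose malonyl-CoA restrains fatty acid oxidation, was at 7.30, 7.03, 7.36 and 5.52 FPKM untreated and at 11.6, 11.4, 10.4 and 9.38 FPKM treated. Groups did not overlap and the log2 fold change was 0.57 (standard error 0.107; adjusted p = 0.00369 by limma). ACACA, the cytosolic form for synthesis, was at 44.1, 46.3, 50.6 and 37.7 FPKM untreated and at 40.8, 40.9, 58.7 and 41.9 FPKM treated. Its log2 fold change was 0.00 with a 95% interval of -0.32 to 0.31 (limma adjusted p = 0.995). The log2 ratio ACACA/ACACB went from 2.55 ± 0.0774 to 1.98 ± 0.308 with no overlap (SD, n = 4 each, exact permutation p = 0.0286, adjusted p = 0.0571). ACACB overlaps UNG on the same strand, so its value carries that uncertainty. FASN, the fatty acid synthase, was at 166, 171, 151 and 195 FPKM untreated and at 176, 212, 190 and 200 FPKM treated. Its log2 fold change was 0.17 (limma adjusted p = 0.505), and 0.48 with the GC trend removed, where it passed (adjusted p = 0.00241). FASN also passed without both libraries numbered 5, and with the GC trend removed and replicate number as a block.

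Of the elongases and desaturases only ELOVL5 was called. ELOVL5 (ENSG00000012660, chromosome 6, 53267398 to 53349179), an elongase of polyunsaturated fatty acids, was at 41.1, 42.5, 43.1 and 24.4 FPKM untreated and at 63.0, 66.2, 61.9 and 49.1 FPKM treated. The treated libraries all lay above the untreated ones, with a log2 fold change of 0.66 (standard error 0.142; adjusted p = 0.00737 by limma). ELOVL6, which extends palmitate to stearate, was at 5.43 to 11.3 FPKM untreated and at 8.49 to 14.5 FPKM treated (0.41, limma adjusted p = 0.136). SCD, the stearoyl-CoA desaturase, had 337, 346, 338 and 267 FPKM untreated and 230, 291, 253 and 235 FPKM treated. It missed the threshold at -0.37 (limma adjusted p = 0.0647) and passed at -0.37 without untreated replicate 5 (adjusted p = 0.0338). FADS1 and FADS2, the delta-5 and delta-6 desaturases, had log2 fold changes of -0.10 and -0.54 (limma adjusted p = 0.557 and 0.108). FADS2 passed at -0.48 without both libraries numbered 5 (adjusted p = 0.00673) and was -0.30 with the GC trend removed (adjusted p = 0.0859), and it overlaps FEN1 on the same strand. The ratios ELOVL5/ELOVL6 and FADS1/FADS2 overlapped between groups, with exact permutation p = 0.229 and 0.0857. FADS1 and FADS2 overlap each other on opposite strands, and whether strand was used in counting is not stated, so their values and ratio are uncertain.

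All 4 long-chain acyl-CoA synthetases rose, a count that includes ACSL5, whose selection by the filter favoured a rise. In each the lowest treated library lay above the highest untreated one. Of all genes tested 11.9% were called higher and 12.3% did not overlap on the higher side. Acyl-CoA synthetases trap fatty acids in the cell as CoA esters for either storage or oxidation. ACSL1 (ENSG00000151726, chromosome 4, 184755595 to 184826818), the form best known from fat, liver and heart, was at 5.79, 5.86, 7.34 and 4.53 FPKM untreated and at 51.7, 60.7, 50.0 and 61.0 FPKM treated. Its mean was 9.50 times the untreated mean, and the log2 fold change was 3.04 (standard error 0.135; adjusted p = 5.54e-07 by limma). Untreated replicate 5 was the lowest here too, but 4.53 FPKM is close to the other 3, and with the GC trend removed the value was 3.00 (limma adjusted p = 1.96e-07).

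ACSL3 (ENSG00000123983, chromosome 2, 222860934 to 222944639), a form found on the endoplasmic reticulum and on lipid droplets, was at 20.4, 27.5, 26.8 and 13.4 FPKM untreated and at 42.5, 38.0, 43.2 and 33.2 FPKM treated. The log2 fold change was 0.83 (standard error 0.161; adjusted p = 0.00449 by limma), and 0.50 with the GC trend removed (adjusted p = 0.0025). ACSL4 (ENSG00000068366, chromosome X, 109624244 to 109733403), which prefers arachidonic acid, was at 5.59, 9.14, 9.21 and 3.08 FPKM untreated and at 15.9, 14.5, 18.4 and 9.79 FPKM treated. It rose by 1.06 on the log2 scale (standard error 0.252; adjusted p = 0.0124 by limma), or 0.70 with the GC trend removed (adjusted p = 0.00113). ACSL5 (ENSG00000197142, chromosome 10, 112374018 to 112428380), known from intestine, was near 0 in untreated cells, at 0.0340, 0.0117, 0.0451 and 0.0359 FPKM, and at 1.51, 1.09, 1.04 and 1.36 FPKM after dexamethasone. Its log2 fold change of 1.11 (standard error 0.0897; adjusted p = 2.15e-05 by limma) rests on the pseudocount of 1, and with a pseudocount of 0.1 it was 3.33. ACSL5 passed the filter on low values through the treated libraries alone, so a difference was built into its selection, and with no filter its value was 1.12 (limma adjusted p = 4.37e-05). ACSL5 overlaps ZDHHC6 on the opposite strand and ACSL4 overlaps KCNE5 on the same strand.

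Together the 4 synthetases went from a summed 34.7 ± 10.5 FPKM to 111 ± 3.90 FPKM (SD, n = 4 each). The makeup of that sum shifted: ACSL1 held 17.6% ± 3.22 of it in untreated and 50.4% ± 6.21 in treated libraries, and ACSL3 went from 63.5% ± 1.27 to 35.3% ± 3.44 although its own level was higher. ACSL4 held 18.7% ± 3.26 and 13.1% ± 2.96, and ACSL5 0.102% ± 0.0586 and 1.13% ± 0.220 (SD, n = 4 each). ACSL1 was thus the most abundant form in every treated library and ACSL3 in every untreated library. These sums and shares are descriptions with no test.

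**Figure D4:**
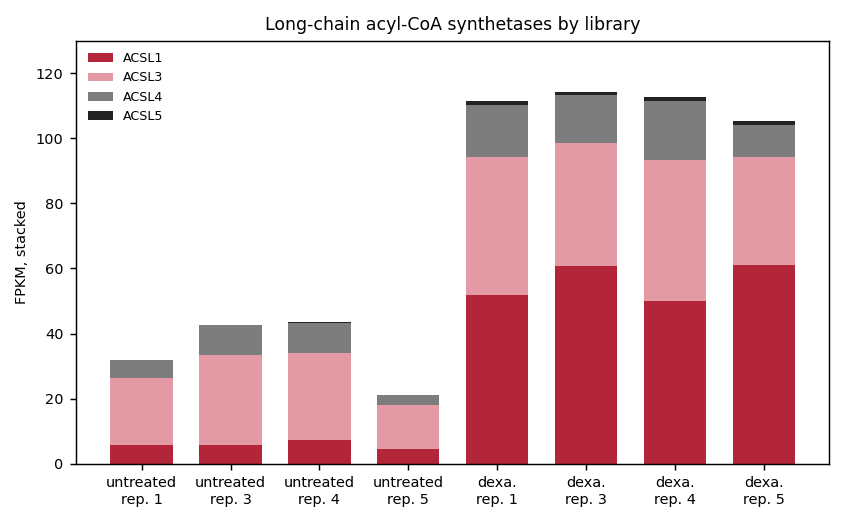
Stacked FPKM (y axis) of ACSL1, ACSL3, ACSL4 and ACSL5 in each of the 8 libraries (x axis). The stacks stand at 21.0 to 43.4 FPKM in untreated and at 105 to 114 FPKM in dexamethasone libraries, with ACSL1 the largest part of each treated stack.

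In triglyceride assembly both terminal acyltransferases fell, and the other 3 genes of the group, AGPAT2, GPAM and LPIN1, were not called. The share called was 40.0% of 5 genes, against 27.2% of all genes tested. DGAT2 (ENSG00000062282, chromosome 11, 75759512 to 75801535), which joins newly made fatty acids to diacylglycerol, was at 2.79, 3.44, 3.13 and 3.47 FPKM untreated and at 0.717, 1.00, 1.09 and 1.15 FPKM treated. The groups were far apart, and the log2 fold change was -1.10 (standard error 0.138; adjusted p = 0.00037 by limma). DGAT1 (ENSG00000185000, chromosome 8, 144314584 to 144326910), which also re-esterifies fatty acids from outside or from lipolysis, was at 14.4, 13.1, 8.92 and 17.8 FPKM untreated and at 6.92, 7.54, 6.72 and 8.89 FPKM treated. Untreated replicate 4 and dexamethasone replicate 5 all but met. The log2 fold change was -0.76 (standard error 0.246; adjusted p = 0.0459 by limma), and the call was lost without untreated replicate 1 or 3 (-0.74 and -0.80), without dexamethasone replicate 1, 3 or 4 (-0.70, -0.76 and -0.70) and with no filter on low values (-0.75, adjusted p = 0.0804). With the GC trend removed DGAT1 passed at a smaller -0.47 (limma adjusted p = 0.027). DGAT1 overlaps HSF1 on the opposite strand. DGAT1 was the more abundant in every library, and the log2 ratio DGAT1/DGAT2 overlapped between groups (difference 0.34, exact permutation p = 0.143). That ratio depends on the pseudocount, since DGAT2 is low: on plain FPKM it was 4.23 ± 1.11 untreated and 7.76 ± 1.43 treated with no overlap (SD, n = 4 each), and with a pseudocount of 0.1 its log2 difference was 0.81 (exact permutation test, adjusted p = 0.0429).

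AGPAT2, which adds the acyl chain at the middle position of glycerol, was at 19.0, 17.0, 33.3 and 51.7 FPKM untreated and at 42.0, 48.5, 50.5 and 58.0 FPKM treated. Its log2 fold change of 0.81 was not called (limma adjusted p = 0.139), since untreated replicate 5 lay among the treated libraries; without that library it was 1.19 and passed (adjusted p = 0.00318). GPAM, the mitochondrial acyltransferase of the opening step, was at 0.968 to 2.71 and 1.56 to 3.14 FPKM (0.24, limma adjusted p = 0.35). LPIN1, a phosphatidate phosphatase, was at 10.3 to 23.1 and 13.4 to 21.7 FPKM (0.04, adjusted p = 0.887). The 5 genes had a median log2 fold change of 0.04.

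**Figure D5:**
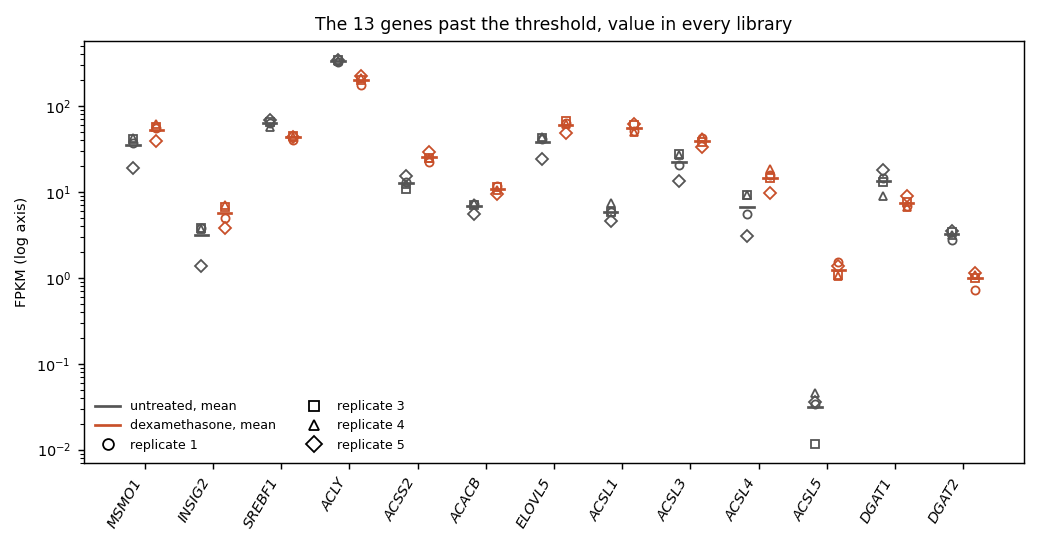
FPKM on a log axis (y axis) of the 13 genes past the threshold in every library, untreated in grey and dexamethasone in orange, with symbols for the replicate number and lines for group means (n = 4). Groups do not overlap for 11 of the 13, MSMO1 and INSIG2 being the exceptions, and ACSL5 goes from at most 0.0451 FPKM to at least 1.04 FPKM.

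Set side by side, the median log2 fold changes were 0.00 for sterol enzymes, 0.04 for regulators, 0.08 for fatty acid synthesis, 1.09 for acyl-CoA synthetases and 0.04 for triglyceride assembly. The acyl-CoA synthetase median includes ACSL5, with the limit given for it, and was 2.20 with a pseudocount of 0.1. The difference between branches was not tested. The median size of the log2 fold change regardless of sign was 0.25 for sterol enzymes, 0.18 for regulators and 0.48 for fatty acid synthesis. It was 1.09 for acyl-CoA synthetases, 0.76 for triglyceride assembly and 0.32 over all genes tested. The 9 genes called in all 19 fits, the one reported and 18 alternatives, were ACLY, ACSS2, ACACB, ELOVL5, the 4 acyl-CoA synthetases, with the limit given for ACSL5, and DGAT2.

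Neighbouring pathways were read from lists of other genes. Of 21 tested genes of glycerolipid and phospholipid synthesis 7 rose and 1 fell, or 38.1% called against 27.2% of all genes tested. PLPP1, a lipid phosphate phosphatase, went from 15.0 ± 1.34 to 35.1 ± 2.23 FPKM (SD, n = 4 each; log2 fold change 1.16, limma adjusted p = 3.92e-05). LPIN3, a relative of LPIN1, went from 3.63 ± 0.0602 to 7.07 ± 0.350 FPKM (0.78, limma adjusted p = 0.00139), and CHKA, the choline kinase, from 9.25 ± 1.36 to 15.3 ± 1.87 FPKM (0.65, limma adjusted p = 0.00238). GPAT3, an acyltransferase of the opening step, fell from 12.0 ± 3.16 to 7.03 ± 0.546 FPKM (-0.68, limma adjusted p = 0.00563).

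Of 21 tested genes of lipolysis and fatty acid oxidation 6 rose and 2 fell, also 38.1% called. G0S2, an inhibitor of the lipase encoded by PNPLA2, rose by 0.99 (limma adjusted p = 0.000785), and DECR1 of mitochondrial oxidation by 0.79 (adjusted p = 0.00186). DECR1 was not called with the GC trend removed, at 0.48 (adjusted p = 0.0617). LIPE, the hormone-sensitive lipase, fell from 2.96 ± 0.448 to 0.898 ± 0.312 FPKM (SD, n = 4 each; -1.08, limma adjusted p = 0.00158), and PNPLA3 fell by 0.39 (adjusted p = 0.0194). PNPLA3 was not called with the GC trend removed, at -0.20 (limma adjusted p = 0.286), nor without untreated replicate 3 or 4 or dexamethasone replicate 3 or 4 (adjusted p from 0.0506 to 0.0577).

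Of 23 tested genes of further elongation, desaturation and substrate supply 4 rose and 2 fell, and the 26.1% called is near the 27.2% of all genes. IDH1, a cytosolic source of NADPH, rose by 0.95, FADS3 by 1.10 and ELOVL3 by 0.47, the last from 0.120 FPKM (limma adjusted p = 0.00381, 0.00582 and 0.001). ELOVL3 passed the filter through the treated libraries alone, and with no filter it was also at 0.47 (limma adjusted p = 0.00023). ELOVL2, an elongase of very long polyunsaturated chains, had a log2 fold change of -0.96 and SCD5, a second desaturase gene, of -0.52 (limma adjusted p = 0.00431 and 0.0102). Sterol handling outside synthesis had 2 genes higher and 2 lower of 15, and its 26.7% called is likewise near the background. SOAT1, which esterifies cholesterol, was at 0.63 and LIPA, the lysosomal acid lipase, at 0.85 (limma adjusted p = 0.0189 and 0.045), while TMEM97 was at -1.13 and NPC1, which exports cholesterol from lysosomes, at -0.49 (adjusted p = 0.0153 and 0.00979). LIPA had overlapping groups and was not called without both libraries numbered 5, at 0.88 (adjusted p = 0.0681), nor with the GC trend removed, at 0.69 (adjusted p = 0.11). In SREBP processing ERLIN2 rose by 0.50 and NFYC, a subunit of NF-Y, had -0.48 (limma adjusted p = 0.0124 and 0.0156), 2 of 12 tested (16.7%). SOAT1 was not called without dexamethasone replicate 3 or 4 (0.62 and 0.61) or without scaling (0.65), nor NFYC without dexamethasone replicate 1, 3 or 4 (-0.43, -0.47 and -0.45). Of 12 genes that use farnesyl diphosphate for other isoprenoids 0 were called by limma, and 1, FNTA, had an unadjusted p under 0.05.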

How the data were processed

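The deposited values were read as FPKM per gene made by the authors; this unit was inferred from the values, since the labels call them counts and they are not whole numbers. Per the submitters' processing notes, FastQC 0.11.9, cutadapt 3.4, STAR 2.7.9a, featureCounts of Subread 2.0.3 and DESeq2 1.32.0 were used; annotation release and strand setting are not given in the sources used here. Whole reads could not be recovered, so no count test was run. Genes with at least 0.5 FPKM in at least 4 libraries (3 when a library was left out) were kept. Scaling between libraries used trimmed means of log ratios (trims 0.3 and 0.05), and log2(FPKM + 1) was fitted with limma 3.58.1 in R 4.3.3 (trend and robust), 4 libraries against 4, with Benjamini-Hochberg adjustment over all genes kept. The code was tested on simulated data. Fold changes on this scale understate changes of low genes. Paralog ratios were compared by two-sided exact permutation tests (SciPy 1.17.1, Python 3.11.15), and figures drawn with matplotlib 3.10.9. GC content, strand and overlaps came from the GENCODE annotation of GRCh38, promoters from RefSeq. Every gene of the set is named; those called, and the highest and lowest of each branch, are given in every library, and of each other list up to 3 called genes with the smallest p in each direction. A gene that this rule names is not reported here. The genes, lists and alternatives were chosen with earlier results of these data known. Alternatives changed the pseudocount, filter, scaling, GC trend, replicate block, limma options and libraries.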

Additional observations from a re-analysis of the deposited data

Results flagged for a closer look

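In 11 of 86 groups of 4 libraries (43 genes in 2 groups) 1 library lay far from the other 3 by Dixon's criterion, where chance gives about 1 in 20 groups, or 4.3. The genes share the same 8 libraries, so the groups are not independent and this comparison with 4.3 is no test. Untreated replicate 5 was the outlying library in 8 of the 11 groups. It was the low one for HMGCS1 (19.8 FPKM, others 44.3 to 48.8), INSIG2 (1.37, others 3.73 to 3.82), STARD4 (1.66, others 3.57 to 3.97), SCD (267, others 337 to 346) and ELOVL5 (24.4, others 41.1 to 43.1). It was the high one for PMVK (47.3 FPKM, others 31.3 to 33.5), TM7SF2 (13.4, others 7.92 to 8.51) and DHCR7 (119, others 68.7 to 73.8). HSD17B7 stood out in untreated replicate 4 at 16.6 FPKM (others 13.7 to 14.2). ACACA stood out in dexamethasone replicate 4 at 58.7 FPKM (others 40.8 to 41.9), and FADS2 in dexamethasone replicate 5 at 252 FPKM (others 184 to 193).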

How the results depend on the processing

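Over 18 alternatives, 702 of 774 values of the 43 genes stayed on their side of the threshold, 26 lost a call and 45 gained one. SCAP passed with the opposite sign, at 0.19 against -0.08 (limma adjusted p = 0.0401), in the replicate block with the GC trend removed. In all 35 values of 10 genes changed sign; none of these genes was called in the fit reported. Of all genes, 5777 were called with the replicate block, 5335 with block and GC trend removed, 5511 without both libraries numbered 5, and 2362 to 3905 with 1 library left out. Of the 43 genes, 14 were higher with the GC trend removed, with the block, or without both libraries numbered 5, 17 with block and GC trend removed, and 7 to 12 with 1 library left out. Lower were 7 with the block or without both libraries numbered 5, 8 with block and GC trend removed, and 2 to 5 with 1 library left out. Of all genes tested, 1448 were higher and 1862 lower in the fit reported. With the block these were 2797 and 2980, and with block and GC trend removed 2696 and 2639. With the GC trend removed they were 2224 and 2235, and without both libraries numbered 5 2678 and 2833. With 1 library left out, 1020 to 1748 were higher and 1322 to 2157 lower. The sterol median was 0.15 with the GC trend removed, with or without the block, 0.13 without both libraries numbered 5 and -0.10 to 0.16 with 1 library left out. The fatty acid median ran from 0.04 to 0.17 and the triglyceride median from -0.12 to 0.18 with 1 library left out. The acyl-CoA synthetase median was 2.20 with a pseudocount of 0.1 and 0.87 with the GC trend removed, with or without the block. With a pseudocount of 0.1 the ratio differences were -0.75 for SREBF1/SREBF2, -1.02 for INSIG1/INSIG2, -0.63 for ACACA/ACACB and 0.81 for DGAT1/DGAT2 (exact permutation tests, adjusted p = 0.0429). The first 3 already had the smallest p possible, so their lower adjusted p came from the DGAT pair joining them. The cause of these shifts was not tested. The labels give libraries a replicate number and do not say whether same-numbered wells were paired. The correlations of the deviations of same-numbered libraries were 0.291, 0.065, 0.314 and 0.713 for replicates 1, 3, 4 and 5. Untreated replicates 1 and 5 correlated best with the dexamethasone library of their own number, and untreated replicates 3 and 4 with dexamethasone replicate 1. Whether the wells were paired cannot be told from these values, so the replicate block is given as an alternative only. At this depth the untreated values of ACSL5, at most 0.0451 FPKM, rest on few fragments. DGAT2 and GPAM were low too, but their lowest values were 0.717 and 0.968 FPKM.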
